A study of Homo sapiens with 3 samples.

Results

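The TRAF genes encode the tumour necrosis factor receptor-associated factors, a family of 7 cytoplasmic adaptors. The members TRAF1, TRAF2, TRAF3, TRAF4, TRAF5, TRAF6 and TRAF7 were taken by symbol from the deposited gene list, and each had a row of its own among 60605 genes. RNA was measured in RCC4, a clear cell renal carcinoma line without functional VHL protein, which had been transduced with a lentiviral Cas9 vector. All cells were held for 24 h with TNF (25 ng/mL) and IFN-gamma (1000 U/mL), and 3 biological replicates were sequenced, for each of which 3 flasks were used. No untreated group is analysed here. Every value below is thus a level under treatment and not a response to the cytokines. With 1 group no test between conditions was possible, and all statements rest on the spread over 3 libraries.

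TRAF proteins bind the cytoplasmic tails of TNF receptors and of the IL-1 and Toll-like receptor complexes. Most carry a RING finger at the amino terminus, followed by zinc fingers and a carboxy-terminal TRAF domain that forms trimers and holds the receptor or a partner adaptor. Through ubiquitin ligases and kinases they lead to NF-kappa-B and MAP kinase activation, and some of them restrain the same pathways. TRAF1 lacks the RING finger, and TRAF7 has WD40 repeats in place of the TRAF domain.

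The promoter windows of 3 members are printed because they stand for the highest gene, the gene with the fewest reads and the only member with a kappa-B match. Each window runs from 250 bases before to 50 bases after an annotated start in RefSeq (GRCh38.p14), 5′ to 3′ on the strand of the gene. All 7 genes matched RefSeq, with 11 windows in all. TRAF1 and TRAF5 have 3 windows each, and the most CpG-rich is printed. Windows of TRAF1, TRAF3 and TRAF5 lie at chr9:120929122-120929421 (minus strand), chr14:102777199-102777498 (plus strand) and chr1:211326583-211326882 (plus strand). Capitals mark a kappa-B match, and windows without capitals hold none.
TRAF1: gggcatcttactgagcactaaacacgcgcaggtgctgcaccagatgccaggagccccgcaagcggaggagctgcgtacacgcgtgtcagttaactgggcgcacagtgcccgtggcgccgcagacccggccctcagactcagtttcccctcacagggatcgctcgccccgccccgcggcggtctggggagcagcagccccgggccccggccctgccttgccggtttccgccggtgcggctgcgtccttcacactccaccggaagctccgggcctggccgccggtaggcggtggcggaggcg
TRAF3: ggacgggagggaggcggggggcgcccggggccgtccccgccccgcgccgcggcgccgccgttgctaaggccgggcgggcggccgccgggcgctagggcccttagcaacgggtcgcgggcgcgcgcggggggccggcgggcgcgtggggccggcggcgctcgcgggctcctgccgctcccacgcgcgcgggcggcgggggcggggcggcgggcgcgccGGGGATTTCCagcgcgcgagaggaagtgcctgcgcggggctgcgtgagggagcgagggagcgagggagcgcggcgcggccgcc
TRAF5: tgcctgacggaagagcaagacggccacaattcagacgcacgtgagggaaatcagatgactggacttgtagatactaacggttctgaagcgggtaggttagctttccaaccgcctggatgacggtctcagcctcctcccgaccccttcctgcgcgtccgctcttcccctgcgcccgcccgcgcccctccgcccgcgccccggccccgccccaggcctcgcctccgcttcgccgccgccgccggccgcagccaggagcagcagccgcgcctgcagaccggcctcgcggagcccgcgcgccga

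The kappa-B motif, the binding sequence of NF-kappa-B factors, was searched on both strands as GGGA or GGGG, then any 1 base, then TTTCC. It was found in 1 of the 11 windows, in TRAF3, where GGGGATTTCC starts 33 bases before the annotated start. Of all 35116 RefSeq windows of this length, 1.02% held a match. The gamma-activated site bound by STAT dimers (TTC, any 3 bases, GAA) and the interferon-stimulated response element (GAAA, any 2 bases, GAAA) were found in 0 of the 11 windows, against 7.66% and 3.57% of all windows. A match describes letters only, and the absence of one says nothing about a factor's binding. The printed TRAF1 and TRAF5 windows had a GC content of 71.3% and 70.3% and an observed-to-expected CpG ratio of 0.84 and 1.06. Their other windows, not printed, had a GC content of 54.0% and 56.7% (TRAF1) and of 52.3% and 48.0% (TRAF5), with CpG ratios from 0.14 to 0.41. The measured levels of these genes, given below, lay at opposite ends of the family.

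Gene-assigned reads numbered 29199806 in replicate 1, 26264283 in replicate 2 and 33458691 in replicate 3. Detection was set at 1 CPM (reads scaled to library size by TMM) or more in all libraries, and levels are RPKM, the CPM per kilobase of exon. Replicate 1 stood apart: 13.1% and 15.2% of 10211 detected protein-coding genes differed more than 2-fold between it and replicates 2 and 3, against 0.118% between replicates 2 and 3. This difference followed GC content, as described below, so each member is given in every library. The renal markers PAX8, PAX2, KRT8, KRT18, KRT19 and CA9 were all detected. Of the leukocyte markers PTPRC, CD3E, CD79A, MS4A1, CD14 and LYZ 0 of 6 were detected, and their summed level lay between 0 and 0.227 RPKM per library. Of the endothelial markers PECAM1, CDH5 and VWF 0 of 3 were detected, and of the fibroblast markers COL1A1 was detected at 0.754 RPKM and DCN was not.

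TRAF transcripts spanned a wide range in these cells. TRAF1 was the highest in every library, TRAF7 and TRAF2 followed, and TRAF3, TRAF4 and TRAF6 lay close together near the middle of the expressed genes. TRAF5 was barely read at all. Detection was reached by 6 of the 7 genes, where 51.4% of 19861 protein-coding genes reached it. The median level of the 7 genes was 8.98 RPKM, against 0.483 RPKM over all protein-coding genes. Among detected genes the medians were 17.2 RPKM for the 6 members and 6.08 RPKM for all.

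**Figure D1:**
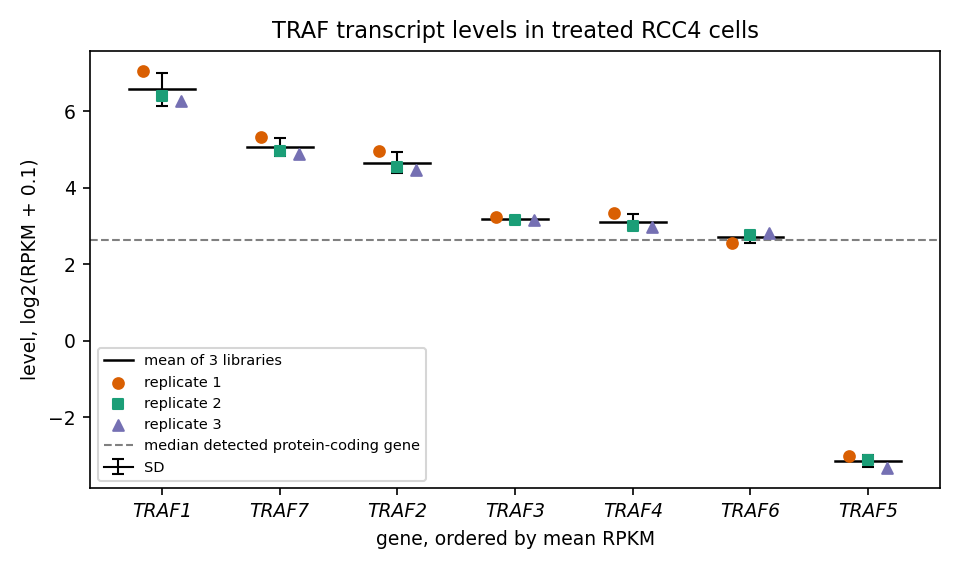
Levels of the 7 TRAF genes on the log2(RPKM + 0.1) scale (vertical axis) for each of 3 libraries (symbols), with the mean of the log values (bar) and SD (whisker); the dashed line is the median detected protein-coding gene at 6.08 RPKM. TRAF1 lies highest and TRAF5 lowest in every library, and the 6 other genes than TRAF5 all have means above the dashed line.

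TRAF1 joins TRAF2 in mixed trimers that bind the ligases BIRC2 and BIRC3 strongly, and its gene is a well-known NF-kappa-B target. It lies at chr9:120902393-120929173 on the minus strand (GRCh38), has 6.45 kb of exon sequence, and shares no exon sequence with the span of another gene. Its RPKM was 133 in replicate 1, 83.7 in replicate 2 and 76.7 in replicate 3, from 23559, 14544 and 17178 reads. The first library was high and the other 2 lay near each other. The mean was 97.9 ± 30.8 RPKM (SD, n = 3), and 360 was its rank from the top among the 10211 detected protein-coding genes (percentile 96.5). Without replicate 1 the mean was 80.2 RPKM. TRAF1 made up 58.1%, 51.8% and 50.7% of the summed RPKM of the 7 genes in replicates 1, 2 and 3. These shares depend on the length used. With the longest transcript TRAF2, TRAF3, TRAF4 and TRAF7 rose by more than 1 SD, and shares were not computed.

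TRAF2 is the RING-bearing adaptor that TRADD brings to TNF receptor 1, and it recruits BIRC2 and BIRC3. The gene lies at chr9:136881912-136926607 on the plus strand, on the same chromosome as TRAF1. Its RPKM was 31.0, 23.1 and 21.9 in replicates 1, 2 and 3, a mean of 25.3 ± 4.93 (SD, n = 3), from 3112, 2282 and 2788 reads. With its longest annotated transcript as length the mean was 41.0 RPKM. TRAF1 exceeded TRAF2 in each library, by 2.101, 1.85 and 1.80 on the log2 scale, or 3.78-fold in the mean (log2 1.92 ± 0.16, SD, n = 3).

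TRAF7, which works with the kinase MAP3K3 and has ubiquitin ligase activity, stood above TRAF2. It lies at chr16:2155698-2178129 on the plus strand. Its RPKM was 40.1, 31.2 and 29.3, a mean of 33.5 ± 5.77 (SD, n = 3), from 4933, 3773 and 4564 reads. The span of CASKIN1 on the opposite strand takes in 21.2% of its exon sequence, and CASKIN1 itself had 6, 4 and 20 reads. The log2 ratio of TRAF7 to TRAF2 was 0.37, 0.43 and 0.42, past the replicate spread (0.41 ± 0.031). The mean log2 ratio was 0.75 with the exon length outside other spans and 0.70 without length scaling. With the longest annotated transcript of each gene it was -0.0083.

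TRAF3 restrains the alternative NF-kappa-B pathway by holding the kinase MAP3K14 in a complex with TRAF2 and BIRC2, where it is degraded. It also links TICAM1 and MAVS to TBK1 in interferon induction. The gene lies at chr14:102777476-102911500 on the plus strand. Its RPKM was 9.30, 8.89 and 8.76, a mean of 8.98 ± 0.281 (SD, n = 3), from 2106, 1979 and 2513 reads. Its coefficient of variation over the libraries was 3.13%, against 31.5% for TRAF1. With GC correction the SD of TRAF3 was 0.576 RPKM, larger than that of TRAF4 at 0.153 RPKM.

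TRAF4, known from epithelial cell migration and cell junctions, had a level close to TRAF3. It lies at chr17:28743984-28750958 on the plus strand. Its RPKM was 9.99, 7.86 and 7.79, a mean of 8.54 ± 1.25 (SD, n = 3), from 1259, 973 and 1243 reads. TRAF4 was above TRAF3 in replicate 1 and below it in replicates 2 and 3, with log2 ratios of TRAF3 to TRAF4 of -0.10, 0.18 and 0.17. The mean ratio, 0.080 ± 0.16, did not exceed the spread. Over replicates 2 and 3 alone, which lie close together, it did (0.17, SD 0.0061), but such a pass says little. Of the TRAF4 exon sequence 27.4% lies in the spans of the antisense genes AC010761.4 and AC010761.5, both listed at 0 reads in each library. That log2 ratio became -0.38 when only exon sequence free of other spans was used for length, -0.47 with the longest transcript and 0.93 with no length scaling, and each of these passed the spread. The TRAF4 level itself was 11.8 and 13.4 RPKM with the first and second of these lengths.

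TRAF6 serves the IL-1 and Toll-like receptors as well as CD40, and with UBE2N builds the ubiquitin chains that activate MAP3K7. The gene lies at chr11:36487027-36510272 on the minus strand. Its RPKM was 5.74, 6.74 and 6.94, a mean of 6.48 ± 0.642 (SD, n = 3), from 767, 885 and 1174 reads. Alone among the detected members it was lowest in replicate 1. TRAF4 exceeded TRAF6 in each library, by 0.79, 0.22 and 0.16 on the log2 scale, but the mean of 0.39 ± 0.35 did not pass 2 SD. With GC correction the mean passed at 0.39. Over replicates 2 and 3 alone it was 0.19 and also passed, but with an SD of 0.038 between close libraries this says little.

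TRAF5 is a close relative of TRAF3 that acts with TRAF2 downstream of CD40 and lymphocyte receptors. It lies at chr1:211326615-211374946 on the plus strand and had 6, 4 and 0 reads in replicates 1, 2 and 3. These reads equal 0.0243 and 0.0165 RPKM in replicates 1 and 2. If reads were independent, the 0 in replicate 3 would allow up to 0.00957 RPKM (3 reads). With both mates of a pair counted, that limit is higher. Over all libraries TRAF5 had 10 reads (exact Poisson 95% interval 4.80 to 18.4), and TRAF6 had 2826. Per kilobase of exon TRAF6 was 523-fold higher, with an interval of 285 to 1092 taken from the TRAF5 count only. Both intervals treat each read as independent. They are too narrow, since both mates of a read pair appear to be counted. In GENCODE 29 no exon sequence of TRAF5 lies within another gene's span. The counts are given as listed. The same libraries list 0 reads for SDHA, a respiratory chain enzyme that cells need, which has no such overlap either. The reason for the counts of either gene was not tested.

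In the order of levels, 4 of the 6 ratios between neighbours passed the replicate spread, meaning the same sign in every library and a mean above 2 SD. TRAF1 over TRAF7 was 1.51 ± 0.19 on the log2 scale, or 2.85-fold, and TRAF2 over TRAF3 was 1.47 ± 0.22, or 2.77-fold. TRAF7 over TRAF2 and TRAF6 over TRAF5 were the others. TRAF3 with TRAF4, and TRAF4 with TRAF6, did not differ beyond their spread. Over all 21 pairs of members 19 passed, and of the 15 pairs without TRAF5 13 passed. Members were ordered by their mean level in these same libraries, which favours a pass for pairs far apart in the order. The share of all detected gene pairs passing the same rule was not computed, so the counts describe the family alone. Ratios to TRAF5 depend on the pseudocount of 0.1 RPKM, which was above the TRAF5 level in each library. No p-value is given, since an exact sign-flip permutation over 3 libraries cannot go below 0.25.

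**Figure D2:**
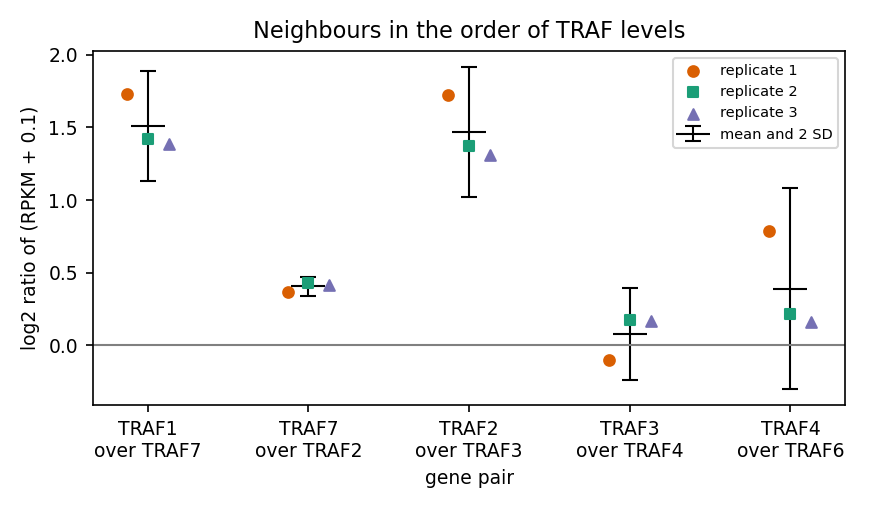
Log2 ratios of RPKM + 0.1 (vertical axis) between neighbours in the order of TRAF levels, TRAF5 left out, for each of 3 libraries (symbols) with the mean and 2 SD (whiskers). The whiskers of TRAF3 over TRAF4 and TRAF4 over TRAF6 cross 0, and the other 3 do not.

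Replicate 1 differed from the others with transcript GC content, and the TRAF genes cover much of that range. The log2 ratio of its CPM to the average CPM of replicates 2 and 3 was taken for each gene. Over 20 bins of detected genes the bin median ran from -1.56 at a median GC content of 37.5% to 0.39 at 65.3%. TRAF6, at 43.2% GC, had a log2 ratio of -0.25, where the median of 1006 detected protein-coding genes within 1 percentage point of GC was -0.41. TRAF7 at 62.1%, TRAF2 at 61.6% and TRAF4 at 60.2% had ratios of 0.41, 0.46 and 0.35, beside medians of 0.35 for each. Of the like genes 63.6%, 61.3%, 75.5% and 49.8% were lower than TRAF6, TRAF7, TRAF2 and TRAF4. TRAF3, at 53.3%, had a ratio of 0.075 against a median of 0.26, and 24.6% of 615 like genes were lower.

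Of the 6 detected members, TRAF1 departed furthest from genes of its GC content. At 55.2% GC it was 1.66-fold higher in replicate 1 (log2 0.73), beside a median log2 ratio of 0.30 for 639 genes of like GC, and 98.6% of these were lower. With GC correction the ratio was 0.43. Among the 10211 detected protein-coding genes its ratio ranked 91 from the top. A ratio above 1.5-fold was seen for 1 of the 6 detected members, TRAF1, and for 3.36% of all detected genes, and a ratio below 1.5-fold in the other direction for 0 of 6 and 22.7%. Replicate 1 exceeded both other libraries for 5 of the 6 members and for 48.6% of all detected genes, and it was below both for 1 member, TRAF6, and 43.6% of genes. Between replicates 2 and 3 the log2 ratios of the 6 members lay between -0.13 and 0.041, and 1.66% of detected genes differed more than 1.5-fold.

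**Figure D3:**
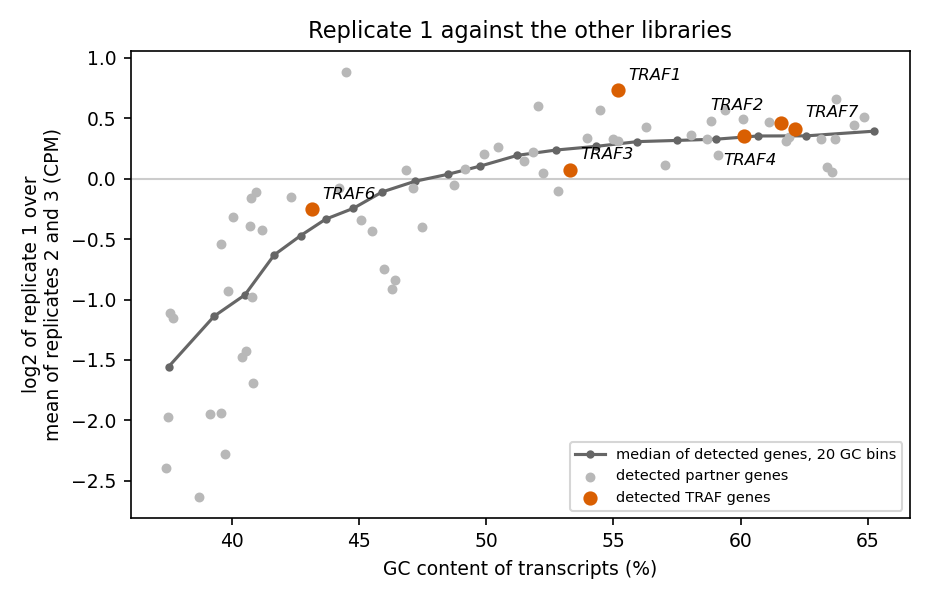
Log2 ratio of CPM in replicate 1 to the average CPM of replicates 2 and 3 (vertical axis) against transcript GC content in percent (horizontal axis) for the 6 detected TRAF genes (large points), 61 detected partner genes (small points) and the median of all detected genes in 20 GC bins (line). TRAF1 lies above the line at 0.73, and TRAF6 is the only TRAF gene below 0.

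The detected genes with levels most like a TRAF gene were named by Euclidean distance in log2(RPKM + 0.1) over the 3 libraries. For TRAF1 these were TAGLN, ZYX and HSD17B10, at distances of 0.115, 0.137 and 0.198, and 16 genes lay within 0.25. TAGLN, an actin-binding protein of contractile cells, had 141, 80.4 and 73.9 RPKM, with the same high first library. The remaining members had many more genes within that distance: 154 for TRAF2, 178 for TRAF3, 189 for TRAF4, 130 for TRAF6 and 166 for TRAF7. The nearest were CEP170B, WDR18 and NDN for TRAF2, TUBGCP6, TNNT1 and STX3 for TRAF3, and ILKAP, FXR2 and NSMCE1 for TRAF4. For TRAF6 they were RNF168, PIK3CB and KLHL29, and for TRAF7 SF3A1, FURIN and ESYT1. Over 3 libraries such likeness describes a level and the offset of 1 library.

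The genes around the TRAF adaptors were described in 5 lists of 79 genes, of which 61 were detected (77.2%, against 51.4% of all protein-coding genes). Receptors were the least complete at 47.4%, near the share of all protein-coding genes, and the binders and regulators the most at 93.3%. The IL-1 and Toll-like receptor arm stood at 82.4%, the ligases and kinases at 90.9%. For the genes with a MATH domain, described below, it was 66.7%. The median level over all protein-coding genes was 0.483 RPKM. A gene with at least 80% of its exon sequence inside other genes' spans is called covered, and its low values are given only as listed. Of the 8 covered partner genes 1 was detected, and of the other 71 genes 60 were.

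Of the receptors that bind TRAF proteins, 9 of 19 were detected (47.4%, against 51.4% of all protein-coding genes), with a median of 0.221 RPKM. TNFRSF12A, the receptor of the ligand TWEAK, stood highest at 189.6 ± 25.7 RPKM (SD, n = 3). CD40, which binds TRAF2, TRAF3 and TRAF6 directly, followed at 92.0 ± 5.41 RPKM, and TNF receptor 1 (TNFRSF1A), which reaches TRAF2 through TRADD, at 55.3 ± 9.85 RPKM. LTBR, the lymphotoxin beta receptor, stood at 34.3 ± 4.81 RPKM. TNFRSF1B, which binds TRAF2 directly, had 0, 0 and 2 reads. All libraries listed 0 reads for TNFRSF13B, TNFRSF17, TNFRSF18, CD27 and NGFR, of which TNFRSF17, CD27 and NGFR are covered. CD40 exceeded TRAF3 in each library, with a log2 ratio of TRAF3 to CD40 of -3.34 ± 0.043.

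In the IL-1 and Toll-like receptor arm, 14 of 17 genes were detected, with a median of 1.90 RPKM. The kinase IRAK1, which hands the signal to TRAF6, was far above it at 226 ± 63.5 RPKM, and the log2 ratio of TRAF6 to IRAK1 was -5.68, -4.82 and -4.72 (mean -5.08 ± 0.53). With GC correction its SD was 0.065. The adaptors TICAM1 and MAVS, which use TRAF3, stood at 33.2 ± 4.84 and 23.4 ± 6.17 RPKM. MYD88, the adaptor of most Toll-like receptors, was at 5.81 ± 1.39 RPKM, close to TRAF6. TLR2 and the covered gene TLR4 were listed at 0 reads in each library.

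Ligases and kinases of TRAF complexes were detected for 20 of 22 genes, with a median of 6.06 RPKM. RBCK1, a subunit of the linear ubiquitin ligase, stood highest at 95.04 ± 3.82 RPKM. BIRC2 stood at 36.8 ± 23.1 RPKM and had 1279, 5770 and 8316 reads, so TRAF2 exceeded it in replicate 1 and lay below it in replicates 2 and 3 (log2 ratios 1.58, -1.03 and -1.27). At a GC content of 39.7%, the log2 ratio of replicate 1 to the others was -2.28 for BIRC2, beside a median of -1.07 for genes of like GC content. The SD of the log2 ratio of TRAF2 to BIRC2 was 1.58, and 0.77 with GC correction. Over replicates 2 and 3 alone the mean ratio was -1.15, past their spread, which says little because these libraries lie close together. TRADD stood at 29.04 ± 5.53 RPKM, and the log2 ratio of TRAF2 to TRADD was -0.20 ± 0.029. That order also turned with the longest transcript (0.045). RNF31, the catalytic subunit of the linear ubiquitin ligase, and the covered gene UBE2V1 were listed at 0 reads, and 55.2% of the RNF31 exons lie in other spans.

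MAP3K14, the kinase that TRAF3 holds down, stood at 6.25 ± 1.51 RPKM. The log2 ratio of TRAF3 to MAP3K14 was 0.21, 0.70 and 0.71, and the mean of 0.54 ± 0.28 did not pass the spread. It passed without replicate 1 (0.70), with GC correction (0.54) and without length scaling (1.06). It turned to -0.22, not past the spread, with the exon length outside other spans, which hold 41.3% of the MAP3K14 exons. MAP3K3, the partner of TRAF7, was at 2.04 ± 0.12 RPKM, below TRAF7 by a log2 ratio of 3.96 ± 0.17. Other spans hold 78.2% of the MAP3K3 exons, and with the length outside them the ratio was 2.16.

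Binders and negative regulators of TRAF proteins were detected for 14 of 15 genes, with a median of 7.32 RPKM. TNIP1, a partner of the deubiquitinating enzyme TNFAIP3, stood highest at 130.3 ± 19.7 RPKM. TRAFD1, an interferon-inducible inhibitor with a TRAF-type zinc finger, followed at 108 ± 11.8 RPKM. TNFAIP3, which ends TRAF signalling, stood at 91.0 ± 7.68 RPKM, and its ratio to TRAF1 did not pass the spread (log2 ratio of TRAF1 to TNFAIP3 0.42, -0.067 and -0.16, mean 0.064 ± 0.31). TANK, which binds TRAF3 and TBK1, stood at 2.16 ± 1.27 RPKM, from 114, 381 and 621 reads in replicates 1, 2 and 3. Other spans hold 42.9% of its exons. Its log2 ratio of replicate 1 to the others was -1.95, beside a median of -1.18 for genes of like GC content. TRAF3IP3 had 0, 0 and 2 reads.

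Genes outside the family that carry the MATH domain, the fold of the TRAF carboxy terminus, were detected for 4 of 6, with a median of 3.88 RPKM. USP7, a deubiquitinating enzyme, stood at 20.4 ± 0.732 RPKM, TRIM37 at 7.36 ± 1.30 and SPOP at 6.72 ± 0.199 RPKM. The meprin genes MEP1A and MEP1B, proteases of kidney brush border, had 0 reads in all libraries as listed, and MEP1B is covered.

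**Figure D4:**
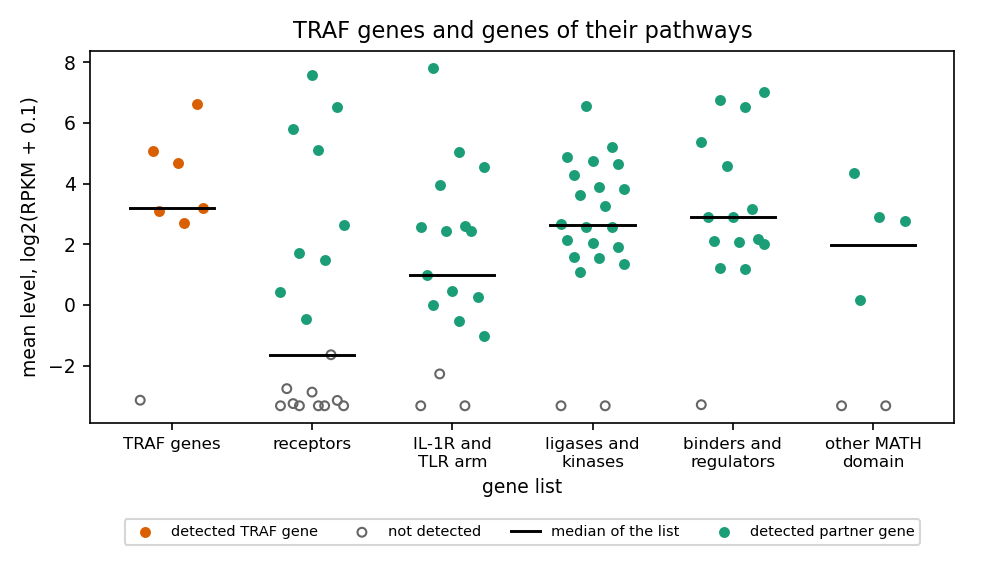
Mean level over 3 libraries on the log2(RPKM + 0.1) scale (vertical axis) for the 7 TRAF genes and 79 partner genes in 5 lists (horizontal axis); filled points are detected genes, open points are not, and bars are list medians. The receptor list has the lowest median, 0.221 RPKM, with 9 of 19 genes detected (47.4%, against 51.4% of all protein-coding genes).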

How the data were processed

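RNA of 3 libraries of 1 treated group was measured by poly(A) sequencing. Per the submitters' processing notes, the tools were featureCounts 2.0.0, HISAT2 2.1.0, cutadapt 1.18 and FastQC, and the build was hg38. Annotation release, strand setting and counting options are not given in sources used here. Each value of the deposited signal is a gene count divided by a library's size factor; this was inferred, since 100% of nonzero values were whole multiples of 1 read within 0.01 read. Recovered size factors were 0.946, 0.971 and 1.24. Genes with 2 reads outnumbered genes with 1 (1621 against 269 in replicate 1), as when both mates are counted. Intervals and floors treat each read as independent. With both mates counted, the intervals are too narrow and the floors too low.

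Of the gene identifiers 96.3% matched GENCODE 29 (GRCh38), which gave exon lengths, spans and GC content. Its release need not be the authors'. TMM scaling followed the low-count filter of edgeR 4.0.16 under R 4.3.3. Alternatives were DESeq2 1.42.0 size factors, the authors' scaling, other lengths, pseudocounts and thresholds, GC correction and leaving out each library. The edgeR biological coefficient of variation was 0.292 over all libraries and 0.0740 in replicates 2 and 3. Simulated data were drawn from these means with 200 genes moved in replicate 1, over 10965 genes. The median log2 ratio of each group of genes moved by the same fold was recovered within 0.0303. The error of single genes was not measured. The simulation took the spread of replicates 2 and 3 and had no GC trend, unlike replicate 1 here.

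The text names all members, the 3 highest and 2 lowest genes of each list, the 3 nearest genes of each detected member, and genes overlapping members. Ties at 0 are all named. LTBR, TNFRSF1B, MYD88, MAP3K14, MAP3K3, SDHA and the 7 ratios of a member to a partner were chosen after their values were seen. Members, lists and rules were chosen with earlier results of these data known.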

Additional observations from a re-analysis of the deposited data

How the results depend on the processing

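No paired analysis was possible because there is only 1 group. The number of TRAF genes detected was 6, and that of partner genes 49 to 63, under the 15 alternatives run. Of 65 alternative values of the 6 neighbour ratios, 55 kept direction and call. With the longest transcript the log2 ratio was -0.0083 for TRAF7 over TRAF2, -0.47 for TRAF3 over TRAF4 and 0.96 for TRAF4 over TRAF6, and the last 2 passed the spread. With the exon length outside other spans TRAF3 over TRAF4 passed in the opposite direction at -0.38, and TRAF4 over TRAF6 passed at 0.85. Without length scaling TRAF2 over TRAF3 no longer passed (0.31) and TRAF3 over TRAF4 did (0.93). GC correction made TRAF4 over TRAF6 pass at 0.39. Leaving out each library in turn gave 0.032 to 0.17 for TRAF3 over TRAF4 and 0.19 to 0.50 for TRAF4 over TRAF6. Both passed without replicate 1 only. A pass without replicate 1, here and below, rests on the spread between replicates 2 and 3 alone. That SD was small, 0.0061 and 0.038 for these ratios, so such a pass says little. The cause of these changes was not tested. Of 55 alternative values of the levels, 6 moved by more than 1 SD, all with a changed length: TRAF2 (41.0 RPKM), TRAF3 (9.64), TRAF4 (13.4) and TRAF7 (40.7) with the longest transcript, and TRAF4 (11.8) and TRAF7 (42.5) with the exon length outside other spans. TRAF6 over TRAF5 kept its call but ran from 2.88 to 8.28 on the log2 scale with pseudocounts of 1 and 0.01 RPKM, and GC correction was not applied to TRAF5.

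GC correction reversed the ratio of replicate 1 to the other libraries for TRAF3 (-0.16) and TRAF6 (0.21). The 7 ratios to partners, chosen after seeing the data, kept direction and call in 64 of 77 alternative values. TRAF1 over TNFAIP3 reversed to -0.090 (length outside other spans), -0.0012 (longest transcript) and -0.11 (without replicate 1). TRAF2 over TRADD reversed to 0.045 (longest transcript) and 0.32 (no length scaling). TRAF2 over BIRC2 reversed to 0.30 (longest transcript), 0.16 (without replicate 2) and 0.28 (without replicate 3) but was -1.15 without replicate 1, and TRAF3 over MAP3K14 to -0.22. The latter passed the spread without replicate 1 (0.70), with GC correction (0.54) and without length scaling (1.06). Counts were near 0 for TRAF5 alone among the members, with 10 reads in all, and the reason was not tested.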

Other observations

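Among the 61 detected partner genes, 3 were more than 1.5-fold above the mean of the other libraries in replicate 1, or 4.92%, against 3.36% of all detected protein-coding genes. They were TNFRSF9, IRAK1 and MAVS. TNFRSF9, a receptor of activated lymphocytes that binds TRAF1 and TRAF2, had 674, 416 and 390 reads and a log2 ratio of 0.88. Its GC content is 44.5%, where the median log2 ratio of genes of like GC content was -0.27, so it lay further from those genes than TRAF1 did (0.73 against 0.30). IRAK1 had a ratio of 0.66 beside a median of 0.38, and MAVS 0.60 beside 0.23. Another 16 partner genes, or 26.2%, were more than 1.5-fold lower in replicate 1, against 22.7% of all detected protein-coding genes. TBK1, the kinase downstream of TRAF3, had 82, 419 and 746 reads and a log2 ratio of -2.63 beside a median of -1.27. These genes were singled out after their values were seen.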
